A study of Homo sapiens with 15 samples.

Results

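SNB19 cells, a human glioblastoma line, carried 1 of 4 lentiviral ZBTB18 constructs or the empty vector, and the 4 construct groups were averaged with equal weight and set against the empty vector (EV). The constructs, spelled as in the labels, were ZBTB18 full length (FL), its mutant (FL-mut), the short form SF-Nte and the mutant of that form (SF-mut). Each of the 5 groups had 3 libraries, so the average rested on 12 construct libraries and was compared with 3 EV libraries. All cells were grown in serum, and all were transduced, the EV cells included. The labels do not give the mutated residues, the time after transduction, or whether replicates were separate cultures, so the p-values measure the spread between these libraries only, which may be technical. Of 18485 gene symbols counted, 6767 had enough counts to be tested. The average differed from EV for 15 of these (0.222%) by edgeR's quasi-likelihood test at a Benjamini-Hochberg adjusted p of 0.05, and 12 of the 15 (0.177% of the genes tested) had the same sign in FL, FL-mut, SF-Nte and SF-mut. ZBTB18 itself was the 1 gene that rose in this way (0.0148% of the genes tested were called higher), and the other 11 fell, namely S100A6, PGRMC1, FOXJ3, SQSTM1, MRNIP, UBLCP1, NUP107, CLTC, VOPP1, PPA1 and COL5A1. In FL, the SQSTM1 and MRNIP values were smaller than their SE (log2 fold changes -0.42 ± 0.52 and -0.39 ± 0.51 SE). The FL means of both genes lay above EV replicates 1 and 3, so their sign in FL rested on EV replicate 2. SQSTM1 and MRNIP also overlap and may be 1 signal. In all, 14 genes (0.207%) were called lower.

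ZBTB18 is a nuclear protein with an N-terminal BTB domain, through which such proteins bind each other and corepressors, and C-terminal zinc fingers that bind DNA. It mostly represses transcription, recognises an E-box-like sequence that holds the letters CATCTG, and is known in brain for its part in the differentiation of neurons. In glioblastoma it is known as a tumour suppressor that represses genes of the mesenchymal expression class. The question put to the data was which transcripts shifted in 1 direction with any ZBTB18 product, whatever its form and whether mutated or not.

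FL libraries held 803316 to 1393060 counts, FL-mut libraries 865997 to 1313573, SF-Nte libraries 432611 to 603155, SF-mut libraries 315693 to 597414, and EV libraries 1274474 to 1930245. Both short forms were thus read less deeply, the barcodes listed for SF-mut repeat those of EV with a suffix, and a second deposited sample sheet lists both short forms without the other groups. The sources used here name no run, so whether the short forms were read apart from the other groups was not tested. SF-mut replicate 2 and FL-mut replicate 2 stood apart, with median correlations to the other libraries of 0.651 and 0.7. Without both together, 16 genes were called, 14 of them among the 15. Of 12 marker genes of glioblastoma lines, 7 were tested and 0 called. Vimentin (VIM) and CD44 averaged 502 and 204 CPM over the constructs and 547 and 204 CPM in EV, where CPM is the scaled count relative to the library total. Other markers lay further apart: ANXA1 averaged 4019 and 2590 CPM, SOX2 9.98 and 18.4 CPM, and EGFR 2.25 and 8.36 CPM over the constructs and in EV. The 7 tested had median log2 fold changes of -1.34 (FL), -0.59 (FL-mut), 0.49 (SF-Nte) and 0.29 (SF-mut). The summed markers of immune, epithelial and endothelial cells and of the HEK293T packaging line reached 34.7, 151, 30.8 and 13.6 CPM in the construct libraries, against 18.5, 51.6, 23.1 and 15.1 CPM in EV libraries.

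**Figure D1:**
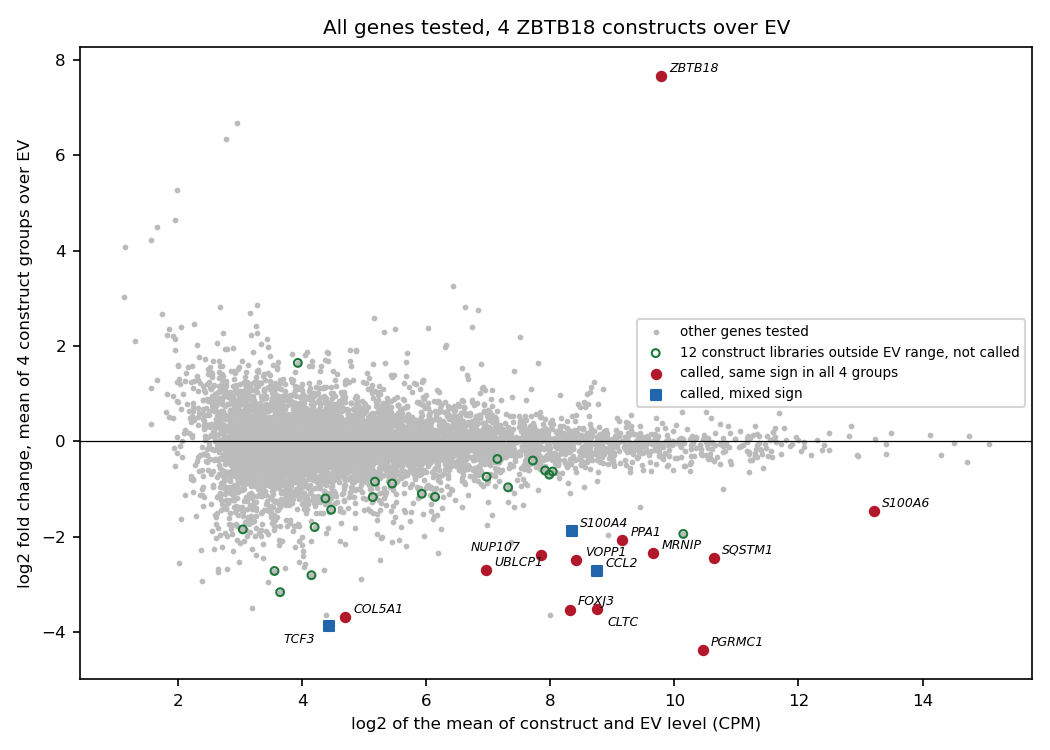
Each point is 1 of 6767 genes tested, by level (log2 of the mean of construct and EV CPM, x axis) and log2 fold change of the mean of 4 construct groups over EV (y axis). Filled circles are the 12 genes called with the same sign in all 4 groups, squares the 3 called with mixed sign, and open circles genes whose 12 construct libraries lay outside the EV range without being called. Among the called genes, only ZBTB18 lies above 0. The height of TCF3, and of uncalled genes with a group at 0 counts, depends on the fit's small added count.

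ZBTB18 was read in every library (chromosome 1, 244048939 to 244057476, plus strand). It had 635, 3067 and 623 CPM in FL, 907, 2800.0 and 6858 CPM in FL-mut, 470.0, 199 and 234 CPM in SF-Nte, and 853, 3631 and 896 CPM in SF-mut, against 7, 4.37 and 7.12 CPM in EV. All 12 construct libraries lay above all 3 EV libraries, so no library went against its label as construct or EV. The count per symbol does not tell the 4 constructs apart, so the labels among them were not checked. Averaged over the constructs it rose 204-fold (log2 fold change 7.67 ± 0.97 SE, adjusted p = 0.00127), and the call was made in each of 15 fits that left out 1 library. The counts do not separate vector transcripts from those of the cells' own gene. The 4 groups did not differ from each other past the threshold (adjusted p = 0.116), although the mean ranged between 301 ± 147 CPM in SF-Nte and 3522 ± 3040.2 CPM in FL-mut (SD, n = 3 each).

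The S100 proteins are small calcium sensors most of them encoded side by side on chromosome 1, and S100A6 (calcyclin; 153534599 to 153536244, minus strand) is a mesenchymal-class gene of glioblastoma. S100A6 had 1931, 1208 and 1109 CPM in FL, 5698, 5984 and 4106 CPM in FL-mut, 9239.6, 7727 and 8726 CPM in SF-Nte, and 7781, 8008 and 8843 CPM in SF-mut, against 12727, 13753 and 13131 CPM in EV. Every construct library lay below every EV library. The spread within groups was widest relative to the mean in FL, at 1416 ± 449 CPM, and the means were 5262 ± 1012 CPM (FL-mut), 8564 ± 769 CPM (SF-Nte) and 8211 ± 559 CPM (SF-mut), against 13204 ± 517 CPM in EV (SD, n = 3 each). The average fell 2.76-fold (log2 fold change -1.46 ± 0.16 SE, adjusted p = 0.00063), the lowest p of the genes tested. Whether less RNA was made in each cell or fewer cells made it cannot be told apart in bulk RNA. Its size was not shared equally: FL, FL-mut, SF-Nte and SF-mut had log2 fold changes of -3.22, -1.33, -0.62 and -0.69, and these groups differed from each other (adjusted p = 0.00015). Taken singly, FL (adjusted p = 3.11e-06) and FL-mut (0.0208) passed the threshold, and SF-Nte (0.599) and SF-mut (0.604) did not. With the short forms alone averaged, the call was lost (log2 fold change -0.67), and the value stayed below 0.

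The promoter of S100A6 held 1 match to CATCTG, on the strand opposite to the gene, beginning 245 bases before the RefSeq start. The 30 bases around it are shown because S100A6 led the genes that fell. They lie at chr1:153536212-153536241 of GRCh38.p14 (RefSeq), are written 5′ to 3′ on the gene's minus strand, and carry the match, read as its reverse complement, in capitals. Longer transcripts of S100A6 in GENCODE 29 start further up, so this stretch is exonic in them.
S100A6: ctgcgCAGATGaggggagactcgtcaccag

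PGRMC1 encodes a haem-binding membrane protein of the cytochrome b5 type that associates with cytochrome P450 enzymes of sterol metabolism (chromosome X, 119236245 to 119244466, plus strand). It had 193, 437 and 288 CPM in FL, 110.1, 38.5 and 166 CPM in FL-mut, 116, 576 and 24.9 CPM in SF-Nte, and 55.6, 18.5 and 20.5 CPM in SF-mut, against 1868, 4491 and 1571 CPM in EV. The highest construct library, at 576 CPM, remained below the lowest EV library. PGRMC1 fell 20.9-fold on average (log2 fold change -4.39 ± 0.53 SE, adjusted p = 0.00124). The log2 fold changes were -3.11, -4.65, -3.46 and -6.33 in FL, FL-mut, SF-Nte and SF-mut, and the test among the 4 groups did not pass (adjusted p = 0.161). FL-mut (adjusted p = 0.0464) and SF-mut (0.0221) passed singly. Its paralogue PGRMC2 had a log2 fold change of -0.20 (adjusted p = 1), and this difference between the paralogues was not tested. The call held in all 15 fits that left out 1 library and in all 16 other settings tried.

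VOPP1, a vesicular membrane protein whose gene lies near EGFR and is often amplified with it in glioblastoma, had the same arrangement (chromosome 7, 55436056 to 55572988, minus strand). It had 150.5, 381 and 54.2 CPM in FL, 194, 70.2 and 122 CPM in FL-mut, 156, 62.1 and 29.9 CPM in SF-Nte, and 63.7, 18.5 and 67.7 CPM in SF-mut, against 443, 694 and 579.6 CPM in EV. Again no construct library reached the EV range. The average fell 5.62-fold (log2 fold change -2.49 ± 0.45 SE, adjusted p = 0.0286), with group values of -1.55, -2.15, -2.78 and -3.48 in FL, FL-mut, SF-Nte and SF-mut. No group passed singly, and the groups did not differ among themselves past the threshold (adjusted p = 0.296). The call was lost in 4 of the 15 fits without 1 library (FL replicate 1, FL-mut replicate 3, EV replicate 2 or EV replicate 3), where the log2 fold change still lay at -2.33 or below.

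FOXJ3, a forkhead transcription factor, fell in every group (chromosome 1, 42176539 to 42335877, minus strand). It had 49.9, 24.9 and 29 CPM in FL, 42.4, 20.4 and 28.8 CPM in FL-mut, 243, 56.5 and 164 CPM in SF-Nte, and 49, 18.5 and 36.9 CPM in SF-mut, against 913, 94 and 708 CPM in EV. EV replicate 2 was low, and SF-Nte replicates 1 and 3 lay above it, whereas the other 10 construct libraries lay below all EV libraries. The average fell 11.6-fold (log2 fold change -3.53 ± 0.44 SE, adjusted p = 0.00127). FL-mut had the lowest group value (-4.22) and SF-Nte the one nearest to 0 (-1.89), with an adjusted p of 0.121 among the 4. FOXJ3 was called in all 15 fits without 1 library and in 13 of 16 other settings. The call was lost with voom and sample quality weights (log2 fold change -2.45, adjusted p = 0.0786), with 1 coefficient for all 12 construct libraries (-3.18, adjusted p = 0.0859) and with the short forms alone (-2.95, adjusted p = 0.186).

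The 250 bases before the RefSeq starts of FOXJ3 and VOPP1, and the 210 bases of the PGRMC1 window that precede its first GENCODE exon, are shown because these genes fell with all 4 constructs. All come from GRCh38.p14, are written 5′ to 3′ on the gene's strand, and hold no capitals because no CATCTG was found in them on either strand. PGRMC1 is at chrX:119236035-119236244 (plus), FOXJ3 at chr1:42335881-42336130 (minus) and VOPP1 at chr7:55537695-55537944 (minus). The GENCODE span of VOPP1 reaches 55572988 on this minus strand, so its window lies inside the gene and longer transcripts start further up. The stretch before that further start is not shown.
PGRMC1: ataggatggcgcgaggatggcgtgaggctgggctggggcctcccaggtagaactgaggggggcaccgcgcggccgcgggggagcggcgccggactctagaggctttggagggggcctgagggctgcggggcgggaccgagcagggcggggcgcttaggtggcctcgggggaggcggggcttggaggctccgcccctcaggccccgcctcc
FOXJ3: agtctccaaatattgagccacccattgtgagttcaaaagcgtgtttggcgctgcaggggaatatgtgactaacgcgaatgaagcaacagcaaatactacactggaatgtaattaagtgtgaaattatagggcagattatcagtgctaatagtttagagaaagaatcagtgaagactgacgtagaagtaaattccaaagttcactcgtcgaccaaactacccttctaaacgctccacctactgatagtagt
VOPP1: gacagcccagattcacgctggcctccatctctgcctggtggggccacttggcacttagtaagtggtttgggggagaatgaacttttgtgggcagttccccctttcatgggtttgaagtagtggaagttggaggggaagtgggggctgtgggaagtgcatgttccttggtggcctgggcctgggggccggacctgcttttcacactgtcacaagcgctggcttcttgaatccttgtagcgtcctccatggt

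These windows differ in base composition: G and C made up 76.4% of the PGRMC1 window, 40.8% of that of FOXJ3 and 56.8% of that of VOPP1, against a median of 58.0% over 35116 RefSeq promoters of the same 250 bases. Of the 14 genes called lower, 12 had a promoter entry, and 2 of these (16.7%) held CATCTG on either strand, namely S100A6 and MRNIP. The share over all 35116 promoters was 12.2%, and over the 5283 promoters of genes tested it was 7.86%. The longer form ACATCTG, each of whose matches is also a match to CATCTG, was in 0 of the 12, in 2.83% of all promoters and in 1.44% of those of genes tested. No match says only that these letters are not in this window. The windows of S100A6, S100A4, MRNIP and VOPP1 lie wholly inside the gene's GENCODE span, so they do not cover the stretch before its furthest start.

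SQSTM1 and MRNIP lie tail to tail on chromosome 5. SQSTM1 (179806398 to 179838078, plus strand) encodes p62, a receptor that delivers ubiquitinated cargo to autophagosomes, and MRNIP (179835133 to 179862173, minus strand) encodes a partner of the MRN complex, which detects DNA breaks. Their ends share 2946 bases, with exons on both strands. The use of strand in counting is not given in the sources used here, so reads of the 2 genes may not have been told apart and they may be 1 signal. SQSTM1 had 1882, 2542 and 1086 CPM in FL, 979.6, 769.6 and 406 CPM in FL-mut, 166, 167 and 117 CPM in SF-Nte, and 258, 200.3 and 170.2 CPM in SF-mut, against 1457, 5102 and 822 CPM in EV. The 6 short-form libraries lay far below all EV libraries, FL libraries overlapped the EV range, and EV replicate 2 was several times the other EV libraries. The average fell 5.45-fold (log2 fold change -2.45 ± 0.36 SE, adjusted p = 0.00657), with log2 fold changes of -0.42, -1.78, -4.03 and -3.55 for FL, FL-mut, SF-Nte and SF-mut. Taken singly, SF-Nte (adjusted p = 0.0295) and SF-mut (0.0245) passed the threshold, and FL (0.946) and FL-mut (0.236) did not. EV replicate 2 was the only EV library above all FL libraries, and the FL mean of 1837 CPM lay above EV replicates 1 and 3. These 4 groups differed from each other (adjusted p = 0.00729), and SF-Nte and SF-mut together lay below FL and FL-mut together by a log2 difference of -2.69 ± 0.39 SE (adjusted p = 0.00165).

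MRNIP was likewise lowest in the short forms, with log2 fold changes of -0.39, -1.72, -3.60 and -3.66 for FL, FL-mut, SF-Nte and SF-mut. It had 1008, 1253 and 581 CPM in FL, 499, 438 and 191 CPM in FL-mut, 106, 119 and 82.2 CPM in SF-Nte, and 106, 111 and 77.9 CPM in SF-mut, against 767, 2513 and 442 CPM in EV. Here too the short-form libraries were lowest and EV replicate 2 highest. MRNIP fell 5.07-fold on average (log2 fold change -2.34 ± 0.36 SE, adjusted p = 0.00802), and the groups differed from each other (adjusted p = 0.00802). Taken singly, SF-Nte (adjusted p = 0.038) and SF-mut (0.0221) passed, and FL (0.947) and FL-mut (0.246) did not. For MRNIP too, EV replicate 2 was the only EV library above all FL libraries, and the FL mean of 947 CPM lay above EV replicates 1 and 3. Without EV replicate 2 both calls were lost, at log2 fold changes of -1.34 for SQSTM1 (adjusted p = 0.247) and -1.31 for MRNIP (adjusted p = 0.334). In the 30 bases at chr5:179858980-179859009 of GRCh38.p14, 5′ to 3′ on the minus strand, the capitals mark the MRNIP match to CATCTG, on the strand opposite to the gene, which begins 180 bases before the RefSeq start. The GENCODE span of MRNIP reaches 179862173 on the minus strand, so longer transcripts start further up and this match lies inside the gene.
MRNIP: gtcggaggggcgCAGATGaccagcgagagg

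UBLCP1 and NUP107 were close in pattern: both were low in nearly all construct libraries and high in EV replicates 2 and 3. UBLCP1, a phosphatase that acts on the nuclear proteasome (chromosome 5, 159263081 to 159286040, plus strand), had a lowest value of 20.4, a median of 27 and a highest value of 54.8 CPM over the 12 construct libraries, against 25, 345 and 279 CPM in EV. Only 4 construct libraries lay below all EV libraries, because EV replicate 1 was as low as they were. The average fell 6.5-fold (log2 fold change -2.70 ± 0.43 SE, adjusted p = 0.0102). NUP107, a scaffold protein of the nuclear pore (chromosome 12, 68686734 to 68745809, plus strand), ranged from 25.2 to 176 CPM over the constructs with a median of 59.7 CPM, against 139.5, 560.2 and 460.3 CPM in EV. Of its 12 construct libraries 11 lay below all EV libraries, with SF-mut replicate 1 the exception. NUP107 fell 5.23-fold (log2 fold change -2.39 ± 0.40 SE, adjusted p = 0.0186). Neither differed among the 4 constructs (adjusted p = 0.629 for UBLCP1 and 0.508 for NUP107), and both calls were lost without EV replicate 2 (adjusted p = 0.228 and 0.25) or EV replicate 3 (0.142 and 0.188). The log2 fold changes stayed near those of all libraries, at -2.19 and -2.50 for UBLCP1 and -2.02 and -2.26 for NUP107 without EV replicate 2 and EV replicate 3 in turn.

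CLTC, the clathrin heavy chain that forms the coat of endocytic vesicles (chromosome 17, 59619689 to 59696956, plus strand), was called through 1 EV library. It ranged from 13.6 to 103 CPM over the 12 construct libraries with a median of 74 CPM, against 87.5, 126 and 2179 CPM in EV. EV replicate 3 stood far above all other libraries, and the other EV libraries lay near or above the top of the construct range. The fitted average fell 11.5-fold (log2 fold change -3.52 ± 0.61 SE, adjusted p = 0.0212), but without EV replicate 3 it was -0.64 (adjusted p = 0.997). The call was also lost without SF-Nte replicate 1. PTRH2, which overlaps CLTC on the opposite strand, had a log2 fold change of -0.33 (adjusted p = 1).

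PPA1, the cytosolic pyrophosphatase that clears the pyrophosphate released by biosynthetic reactions (chromosome 10, 70202830 to 70233911, minus strand), ranged from 79 to 800.3 CPM over the constructs with a median of 156 CPM, against 447, 731 and 1485 CPM in EV. FL replicate 1 and SF-mut replicate 1 were the construct libraries that reached the EV range, and the other 10 lay below it. The average fell 4.2-fold (log2 fold change -2.07 ± 0.38 SE, adjusted p = 0.0312), with log2 fold changes of -0.93, -2.73, -3.23 and -1.40 for FL, FL-mut, SF-Nte and SF-mut. Without 1 library it was called in 8 of 15 fits. COL5A1, a chain of the fibril-regulating collagen V (chromosome 9, 134641774 to 134844843, plus strand), was near the detection limit, at 0 to 18.8 CPM over the constructs with a median of 5.01 CPM, against 7, 27.7 and 105 CPM in EV. All its counts were even, for a reason not given in the sources used here, and with every gene's counts divided by their common divisor, a setting added after the data were seen, the COL5A1 call was lost (log2 fold change -3.63, adjusted p = 0.0649). COL5A1 had a fitted log2 fold change of -3.69 ± 0.71 SE (adjusted p = 0.0447), which was -2.30 (adjusted p = 0.904) without EV replicate 3, and it was called in 3 of 15 fits without 1 library and in 4 of the 16 other settings.

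**Figure D2:**
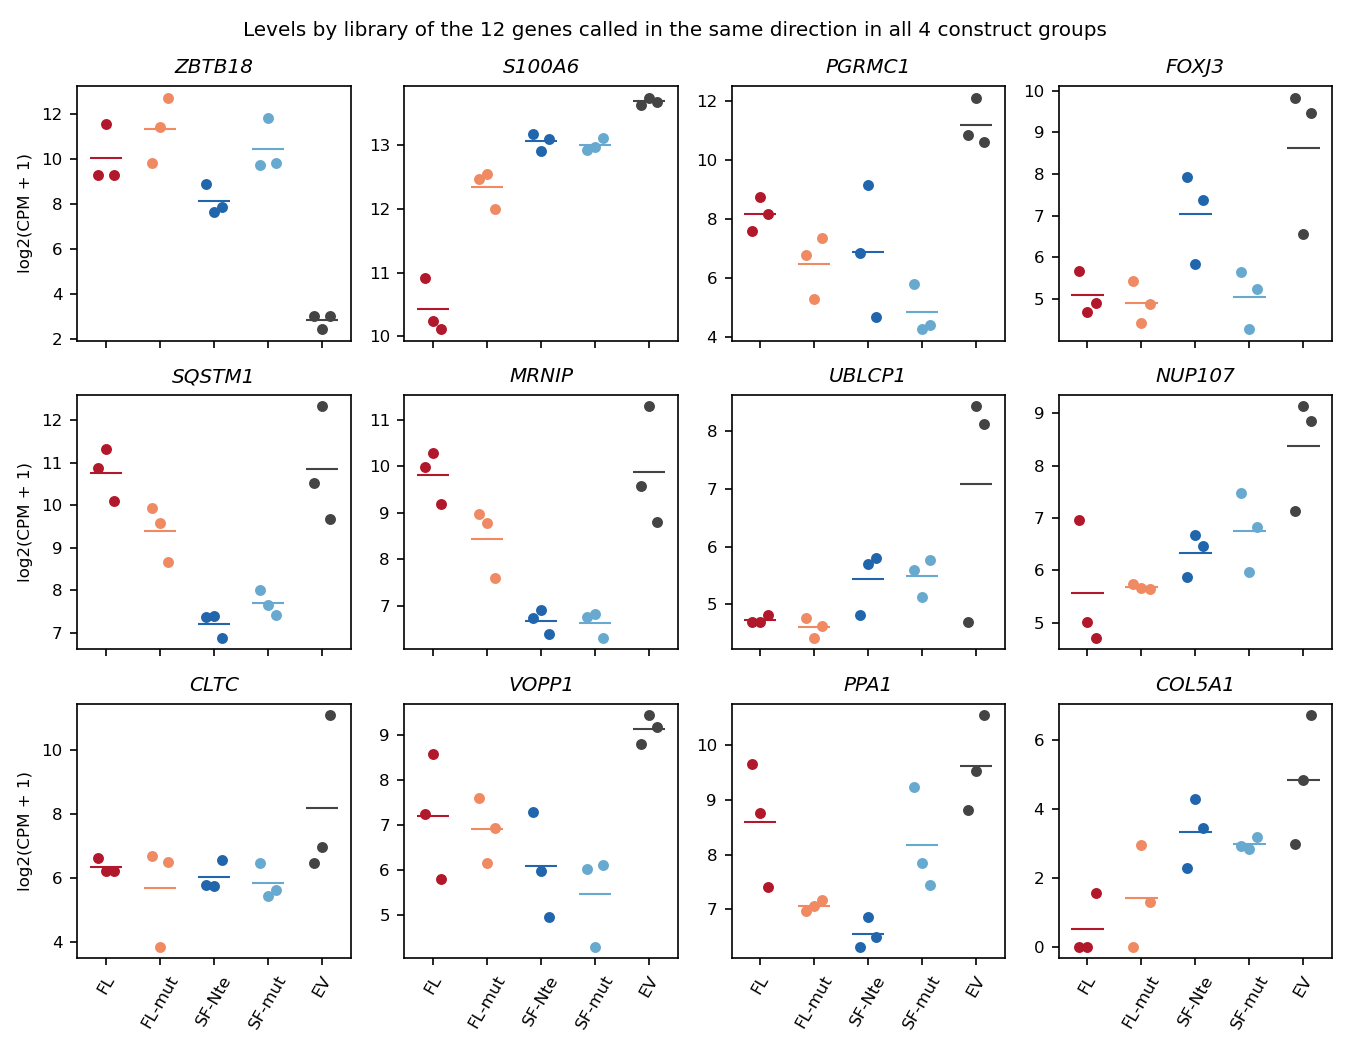
Levels of the 12 genes called in the same direction in all 4 construct groups, as log2(CPM + 1) per library, with 1 point per library, a line at the group's mean of the plotted values, and the construct groups left of EV. ZBTB18, S100A6, PGRMC1 and VOPP1 show no overlap between the 12 construct libraries and EV. In CLTC a single EV library, at 2179 CPM, lies far above the rest.

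Called singly against EV, the 4 groups differed in number: FL had 21 genes called (0.31%), FL-mut 13 (0.192%), SF-Nte 3 (0.0443%) and SF-mut 4 (0.0591%). Of the 12 genes with a shared direction, FL had 3 called singly, FL-mut 4, SF-Nte 3 and SF-mut 4. All 4 comparisons use the same EV libraries, so an EV library that is high for a gene lowers all 4 values together, and their common sign is not independent evidence. Without any test, 1767 of 6767 genes (26.1%) had 1 sign in all 4 groups, 767 of them higher and 1000 lower. Among the 15 called genes, 6 also differed among the constructs past the threshold, against 74 of all genes tested (1.09%). Between the 6 short-form and the 6 full-length libraries, 227 genes differed (3.35%), 90 higher and 137 lower in the short forms.

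**Figure D3:**
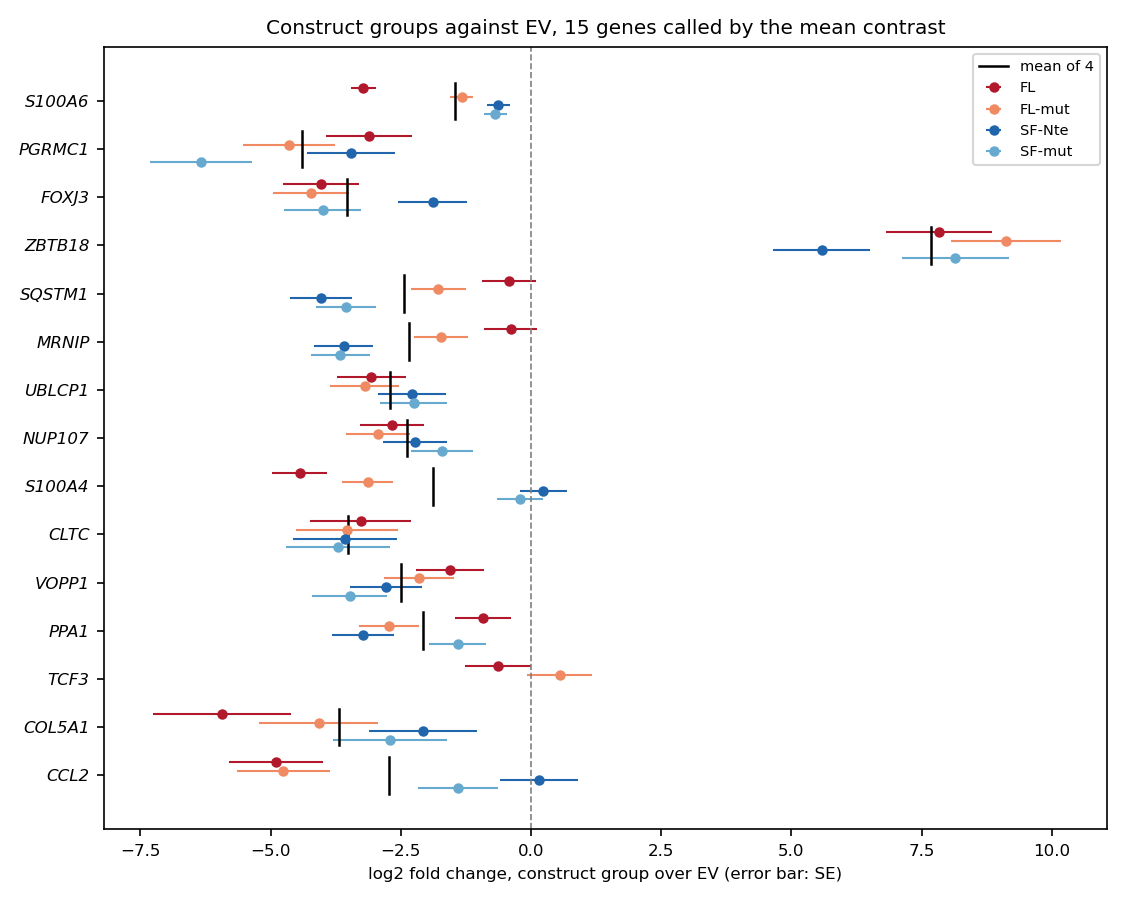
Log2 fold change over EV (x axis) of each construct group (points, with SE bars) and their mean (black line) for the 15 genes called, in order of p. S100A6 is lowest in FL (-3.22), SQSTM1 and MRNIP are lowest in the short forms (-4.03 and -3.60 in SF-Nte), and PGRMC1 lies below -3 in every group. TCF3 has no short-form points and no mean because all its short-form counts were 0.

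The 3 called genes of mixed sign were S100A4, TCF3 and CCL2. S100A4, a neighbour of S100A6 linked to cell motility (chromosome 1, 153543613 to 153550136, minus strand), had 13.2, 7.46 and 36.8 CPM in FL, 53.5, 53.2 and 36.9 CPM in FL-mut, 559, 534 and 393 CPM in SF-Nte, and 310.5, 450.0 and 330.1 CPM in SF-mut, against 238, 354 and 671 CPM in EV. Only the full-length libraries lay below EV, at log2 fold changes of -4.44 in FL and -3.14 in FL-mut, while SF-Nte (0.24) and SF-mut (-0.21) lay within the EV range in every library. The 4 groups differed (adjusted p = 0.000449), so its average of -1.89 ± 0.32 SE (adjusted p = 0.0186) described no single construct. CCL2, a chemokine that draws monocytes (chromosome 17, 34255218 to 34257203, plus strand), had 33.3, 7.46 and 19.4 CPM in FL, 15.1, 41.9 and 12.5 CPM in FL-mut, 772, 595 and 695 CPM in SF-Nte, and 217, 166 and 316 CPM in SF-mut, against 82.5, 227 and 1550.1 CPM in EV. All 6 full-length libraries lay below EV, and the short-form libraries lay within its range. The average of -2.73 ± 0.53 SE (adjusted p = 0.0447) was -0.75 (adjusted p = 0.997) without EV replicate 3. TCF3, an E protein that binds E-boxes (chromosome 19, 1609290 to 1652605, minus strand), had 0 counts in all 6 short-form libraries and averaged 18.4 ± 9.23 CPM in FL and 41.2 ± 22.9 CPM in FL-mut, against 28.3 ± 6.13 CPM in EV (SD, n = 3 each). With 3 counts over a group's libraries as the floor, TCF3 was at least 13.7-fold lower in SF-Nte and at least 13.4-fold lower in SF-mut than in EV. Its average was called (adjusted p = 0.0447) in the fit of all libraries and in 2 of the 15 fits without 1 library.

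Without regard to any test, the 12 construct libraries lay wholly outside the EV range for 25 genes (0.369%), of which 23 were lower and 2 higher, and 4 of the 25 were called. The other 21 include STK17B, and the other 20 are named here after their values were seen. SESN3, a stress-induced inhibitor of mTORC1, was nearest to the threshold: it had 1.13 to 14.9 CPM over the constructs, against 20, 56.8 and 16 CPM in EV (log2 fold change -2.81 ± 0.56 SE, adjusted p = 0.0519). YWHAB, a 14-3-3 adaptor protein, had 82 to 999 CPM over the constructs, against 1791, 1771 and 1769 CPM in EV, and a log2 fold change of -1.95 ± 0.44 SE (adjusted p = 0.127). Its EV libraries were nearly equal, while the construct libraries spread widely. ZBTB38, another BTB zinc finger protein, had 0 to 9.41 CPM over the constructs, against 13, 27.7 and 25.8 CPM in EV (log2 fold change -3.17 ± 0.70 SE, adjusted p = 0.12). The rest of the lower ones were NT5DC2, CNP, EIF5B, C5orf42, FIS1, SYNCRIP, SKP2, CASP8AP2, DFFA, POFUT1, MAP4K4, FAM133B, IVNS1ABP, FAM57A, TAP2, EEF1E1 and TXN2, with log2 fold changes between -2.72 (C5orf42) and -0.37 (TXN2) and adjusted p of 0.207 or more. None of the 21 passed the threshold. Among 6767 genes, some lie outside the range of only 3 EV libraries by chance, so the position of the 21 is a description.

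Above EV, no gene but ZBTB18 passed. The 5 others of lowest p with the same sign in all groups were ACYP2, KDELR3, TOM1L1, STK17B and TRMT10A. ACYP2, an acylphosphatase, averaged 69.4 ± 23 CPM in FL, 14.1 ± 2.54 CPM in FL-mut, 9.85 ± 2.4 CPM in SF-Nte and 21.6 ± 8.18 CPM in SF-mut, and 7.05 ± 2.91 CPM in EV (SD, n = 3 each), with an average log2 fold change of 1.57 ± 0.43 SE (adjusted p = 0.359). STK17B, a kinase of the death-associated family, had 9.96 to 37.7 CPM over the constructs, against 6, 8.01 and 8.01 CPM in EV (1.64 ± 0.48 SE, adjusted p = 0.429), and was the other gene whose construct libraries all lay above EV. KDELR3, a receptor that returns chaperones to the endoplasmic reticulum, had a log2 fold change of 2.85 ± 0.79 SE (adjusted p = 0.363), and TOM1L1, an endosomal adaptor, one of 1.08 ± 0.30 SE (adjusted p = 0.38). TRMT10A, a tRNA methyltransferase, had 1.81 ± 0.55 SE (adjusted p = 0.487). Unadjusted, 361 of the 6767 genes tested had p under 0.05, of which 104 were higher and 257 lower. If no gene had changed, a share near 0.05 would be expected at this threshold, so the count does not show further changes.

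**Figure D4:**
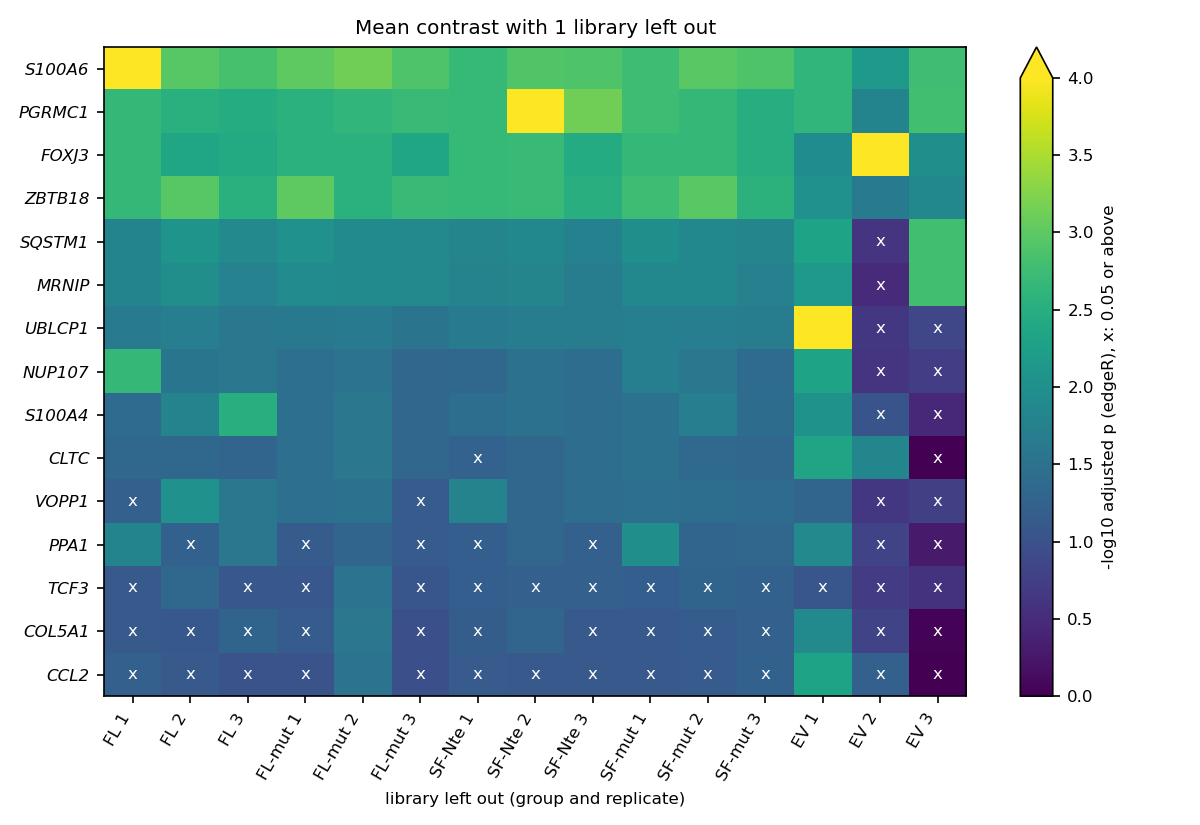
Each row is 1 of the 15 called genes and each column 1 library left out of the fit, with the colour giving -log10 of edgeR's adjusted p for the mean contrast and an x where it was 0.05 or above. S100A6, PGRMC1, FOXJ3 and ZBTB18 have no x. Most x marks among the other members of the first 10 rows stand in the columns of EV replicates 2 and 3. PPA1, TCF3, COL5A1 and CCL2 have most of theirs in columns of construct libraries, and VOPP1 has them in both.

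The number of calls depended on EV replicates 2 and 3 more than on any other single library. Leaving out a construct library left between 10 and 16 genes called, and leaving out EV replicate 1 left 16. Without EV replicate 2, 5 genes were called, all among the 12, and without EV replicate 3, 6 were, also all among the 12. S100A6, PGRMC1, FOXJ3 and ZBTB18 were called in every one of the 15 fits, SQSTM1 and MRNIP in 14, UBLCP1, NUP107, S100A4 and CLTC in 13, VOPP1 in 11, PPA1 in 8, COL5A1 in 3, and TCF3 and CCL2 in 2.

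Across gene lists chosen for this tissue and protein, with earlier results of these data known, calls were few. The counts and medians of these lists are therefore descriptions and no independent support. Over all 6767 genes tested, 0.207% were called lower and 0.0148% higher, and averages lay above 0 for 3027 and below 0 for 3740. Of 8 S100 genes tested, 2 fell (S100A6 and S100A4), 0 rose, and the median log2 fold change was -1.03, against -0.06 over all genes tested. S100A2 had -1.97 (adjusted p = 0.0519), while S100A11 (0.05) and S100A10 (0.59) lay at or above 0. In the full-length groups the S100 medians were -2.90 (FL) and -1.01 (FL-mut), and in the short forms -0.30 in both. Of 27 mesenchymal glioblastoma genes tested, 3 fell (S100A6, S100A4 and CCL2), 0 rose, and the median was -0.31. Of these 3, S100A6 alone was lower in all 4 groups. Over the 27, group medians were -1.34 (FL), -0.59 (FL-mut), -0.01 (SF-Nte) and 0.26 (SF-mut). Among the constructs 7 of the 27 differed, against 74 of all genes tested (1.09%). Of 15 extracellular matrix genes, 1 fell (COL5A1), 12 lay below 0, and the median was -0.44. Several of these genes stand on more than 1 list, so these counts overlap.

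Further lists had a single call or none. Their counts below 0 stand beside 3740 of 6767 over all genes tested. Among 7 ID and E proteins, helix-loop-helix factors that bind E-boxes or block that binding, all 7 lay below 0 with a median of -1.49, and TCF3 was the 1 called; TCF4 had 6.79 to 81.7 CPM over the constructs, against 75, 37.9 and 122 CPM in EV (log2 fold change -1.49 ± 0.46 SE, adjusted p = 0.488). Of 6 NF-kB and cytokine genes, CCL2 fell, and the median was -1.46; BIRC3, an inhibitor of apoptosis, had -1.70 (adjusted p = 0.878). Of 21 lysosome and autophagy genes, SQSTM1 fell and the median was -0.05. The 20 actin cytoskeleton genes had 0 calls and a median of -0.18, with CALD1, which binds actin and myosin, at -1.28 ± 0.30 SE (adjusted p = 0.143) and CSRP1 at -1.37 ± 0.49 SE (adjusted p = 0.679). TGFBI, a matrix protein induced by TGF-beta, had a log2 fold change of -1.98 ± 0.61 SE (adjusted p = 0.487) on the list of YAP and TGF-beta targets, which had 12 genes tested and 0 called.

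In cholesterol synthesis all 18 genes tested lay above 0 on average, with a median of 0.63, and 0 were called. Over all genes tested, 3027 of 6767 lay above 0. The short-form medians were 0.05 (SF-Nte) and 0.02 (SF-mut), against 1.40 (FL) and 1.18 (FL-mut) for full length, so the average reflects mainly the full-length values. FDFT1, squalene synthase, averaged 903 ± 473 CPM in FL, 1051 ± 826 CPM in FL-mut, 273 ± 29.3 CPM in SF-Nte and 389 ± 210 CPM in SF-mut, and 265 ± 41.5 CPM in EV (SD, n = 3 each; average log2 fold change 1.09 ± 0.45 SE, adjusted p = 0.872). GGPS1, which makes geranylgeranyl pyrophosphate, was more even, at 0.65, 1.02, 0.72 and 0.37 in FL, FL-mut, SF-Nte and SF-mut (average 0.69 ± 0.32 SE, adjusted p = 0.937). NPC1, the lysosomal cholesterol exporter, had 2.75 ± 0.91 SE (adjusted p = 0.58). The SPANX and other cancer-testis list was alike in this: 7 of 8 tested genes lay above 0 with a median of 1.29, and the short-form medians were -0.73 and -0.19 (SF-Nte and SF-mut), against 2.78 and 3.23 (FL and FL-mut). SPANXC and SPANXB1 had averages of 1.69 and 1.67 (adjusted p = 0.488 for each), and the SPANX copies are so alike that reads may have been split among them.

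**Figure D5:**
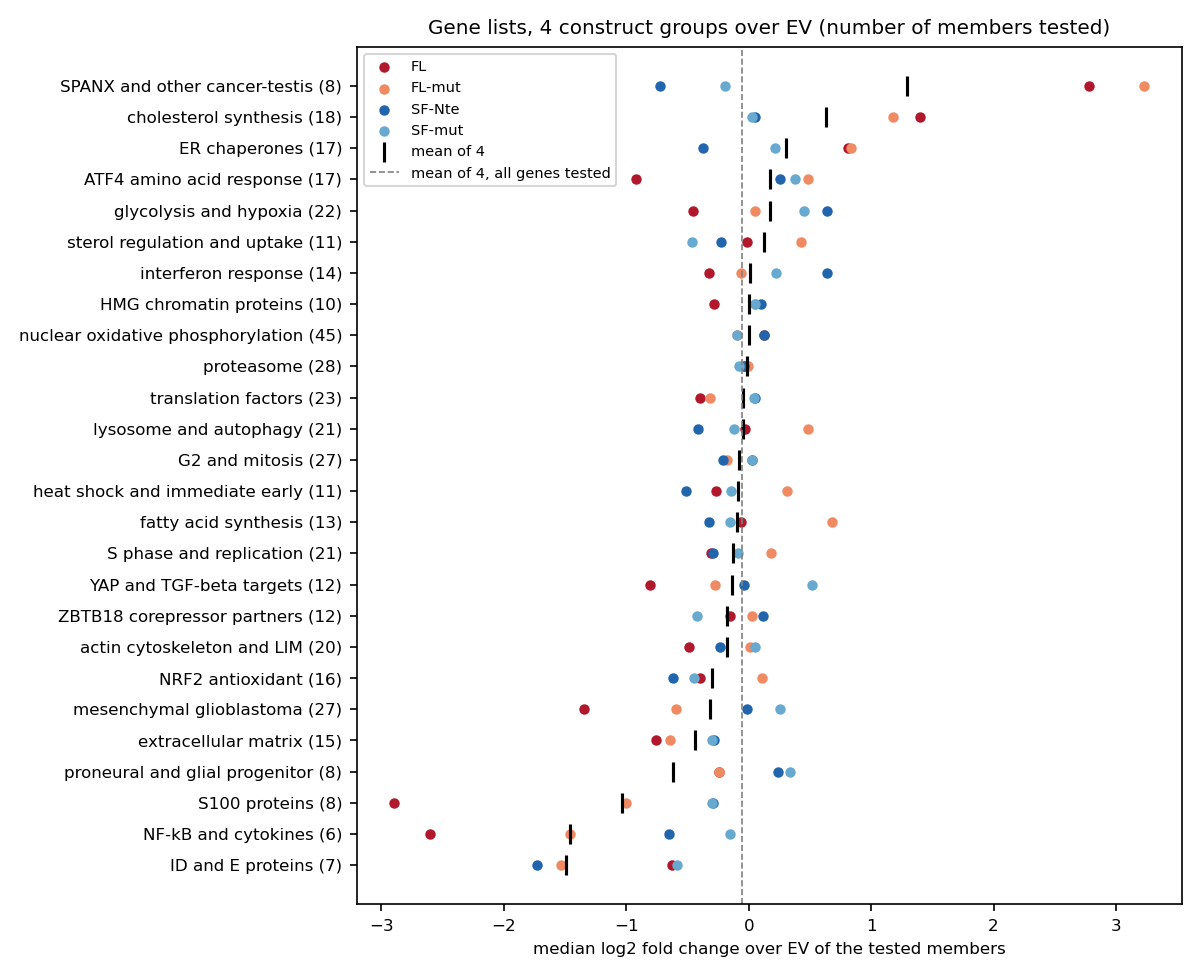
Median log2 fold change over EV (x axis) of the tested members of each gene list with 5 or more tested, for the 4 construct groups (points) and their mean (black tick), with the dashed line at -0.06, the median of the mean contrast over all genes tested. Full-length and short-form points separate most for the SPANX list (-0.73 in SF-Nte and 2.78 in FL) and lie together near 0 for the proteasome and oxidative phosphorylation lists.

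The lists for core cell functions had 0 calls in each, and their averages lay near the median of all genes. The median was 0.00 over 45 nuclear oxidative phosphorylation genes, -0.01 over 28 proteasome genes, -0.05 over 23 translation factors, -0.13 over 21 S phase genes and -0.08 over 27 G2 and mitosis genes. For some lists the average joined group medians on both sides of 0. Translation factors had medians of -0.40 in FL and -0.32 in FL-mut, against 0.05 in each short form. Glycolysis and hypoxia genes (22 tested) had a median of 0.17, ER chaperones (17) 0.30, ATF4 amino acid response genes (17) 0.18, heat shock and immediate early genes (11) -0.09, interferon response genes (14) 0.01, sterol regulation and uptake genes (11) 0.13, fatty acid synthesis genes (13) -0.10, HMG chromatin proteins (10) 0.00 and YAP and TGF-beta targets (12) -0.14. In FL, FL-mut, SF-Nte and SF-mut the medians were -0.45, 0.05, 0.64 and 0.45 for glycolysis and hypoxia, -0.92, 0.49, 0.25 and 0.38 for the ATF4 response, 0.81, 0.84, -0.37 and 0.21 for ER chaperones, and -0.81, -0.27, -0.03 and 0.52 for YAP and TGF-beta targets. The differences between groups in these list medians were not tested. Among 16 NRF2 antioxidant genes 15 lay below 0, against 3740 of 6767 over all genes tested, with a median of -0.30. GSR, glutathione reductase, was the one of lowest p there, with log2 fold changes of 0.26, -1.16, -2.32 and -2.54 for FL, FL-mut, SF-Nte and SF-mut (average -1.44 ± 0.34 SE, adjusted p = 0.16). HMGN3, a nucleosome-binding protein of the HMG list, had log2 fold changes of -3.17, -0.90, 0.28 and -0.01 for FL, FL-mut, SF-Nte and SF-mut, and its average of -0.95 ± 0.20 SE did not pass (adjusted p = 0.066). Corepressor partners of ZBTB18 (12 tested) had a median of -0.17, proneural and glial progenitor genes (8) -0.62, and 0 were called in either. Lipid droplet genes (4 tested) and metallothioneins (3) were too few for a median to describe them, and transcripts of mitochondrial DNA were not analysed here.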

How the data were processed

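Polyadenylated RNA of SNB19 cells was read as PCR-amplified cDNA on Oxford Nanopore instruments, per the labels' protocols. Each gene symbol had 1 raw whole-number count per library in the table the authors deposited. GRCh38 is the build named in the submitters' processing notes, and aligner, counter and use of strand were not given in the sources used here. PCR copies cannot be told from molecules, so floors (3 counts) cover counting error only. Of the genes tested, 167 had counts that all shared a divisor of 2 or more.

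The test was edgeR 4.0.16 (R 4.3.3). Of the symbols, 6767 passed filterByExpr (minimum count 10, minimum total 15) and 11718 did not. TMM scaling preceded a robust quasi-likelihood fit of all 15 libraries, each group having its own coefficient (10 residual degrees of freedom). The contrast was the mean of the 4 construct coefficients minus EV, with Benjamini-Hochberg adjustment over all genes tested. The difference among constructs was an F test on the same fit. CPM were scaled by TMM. DESeq2 1.42.0, limma 3.58.1 (voom), other filters, group subsets and 15 fits without 1 library were alternatives. The script was tested on simulated data with the fitted spread and the same change in all 4 construct groups. Of 50 genes changed at each size, 1 was called at 2-fold, 17 at 4-fold, 39 at 8-fold and 46 at 16-fold. There were 3 false calls. A gene without a call may thus still have changed. Members and lists were chosen with earlier results of these data known. The rule for named genes took called genes with the same sign in all groups, genes without overlap first; per list up to 4 called members or the 2 of lowest p; and 5 of lowest p where a direction had no call. Positions are from GENCODE 29 (GRCh38), and 97.3% of symbols matched it.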

Additional observations from a re-analysis of the deposited data

Results flagged for a closer look

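For 6 of the 15 genes called, the 4 construct groups also differed from each other by edgeR's quasi-likelihood F test, adjusted over all genes tested. S100A6 (adjusted p = 0.00015) was lower in all 4 groups and lowest in FL, at a log2 fold change over EV of -3.22. SQSTM1 (adjusted p = 0.00729) and its overlapping neighbour MRNIP (adjusted p = 0.00802) were lowest in SF-Nte and SF-mut. S100A4 (adjusted p = 0.000449) and CCL2 (adjusted p = 0.00874) were lower in FL and FL-mut and had values on both sides of 0 in the short forms. TCF3 (adjusted p = 0.00874) had 0 counts in all 6 short-form libraries. The short-form libraries were also the shallowest, at 315693 to 603155 counts, and the part of depth in each of these 6 differences was not tested. With all libraries thinned to the smallest total, 3853 genes passed the filter, against 6767 in the main fit. Of these 3853, 123 differed among the constructs, beside 74 of 6767 in the main fit. In the mean contrast 13 were called, 12 of them among the 15. A gene absent from these counts may have been dropped by the filter.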

How the results depend on the processing

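PGRMC1 and ZBTB18 were called in all 16 settings other than leaving out 1 library, and S100A6 in 14 of them. The fit of 1 coefficient for all 12 construct libraries called 4 genes, 3 lower, and lost S100A6. Counts of calls for the mean contrast depended on the tool and filter, beside 15 of 6767 in the main fit. On the same 6767 genes, DESeq2 called 33 (5 higher, 28 lower, 26 with the same sign in all groups). Voom with sample quality weights called 44 of the 6767 (43 lower, 37 with the same sign). With no filter on low counts, 111 of 18485 genes were called (22 higher, 89 lower, 92 with the same sign). FL and FL-mut alone gave 16 (8 higher, 8 lower), SF-Nte and SF-mut alone 6 (5 lower, all 6 with the same sign), and leaving out a construct group 12 with 2 higher (FL), 7 with 6 lower and all 7 of the same sign (FL-mut), 9 with 8 lower (SF-Nte) and 10 with 9 lower (SF-mut).

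The difference among constructs had 688 calls with DESeq2, 325 with voom, 993 without a filter and 123 after thinning, and short against full-length forms 555, 349 and 611 with the first 3. These counts stand beside 74 and 227 of 6767 genes in the main fit. Without a filter 18485 genes were tested, and after thinning 3853. Against EV singly, DESeq2 called 128, 145, 24 and 25 genes in FL, FL-mut, SF-Nte and SF-mut. With the replicate block, 11 genes were called in the mean contrast, 113 among constructs and 5 in SF-Nte. The 11 held 9 of the 15 and 8 of the 12 of shared direction, and UBLCP1 (adjusted p = 0.0518), PPA1 (0.0638), COL5A1 (0.0742) and CLTC (0.182) were lost. Deviations of same-numbered libraries correlated above 0.1 in all 3 numbers for 2 of 10 pairs of groups, FL with SF-mut and FL with EV (0.371, 0.157 and 0.52). FL-mut with SF-mut had 0.599, 0.671 and 0.0372 for replicates 1, 2 and 3. Since 8 pairs of groups did not pass 0.1 in all 3 numbers, and the labels do not say that a number marks a shared culture, the numbers were not taken as pairing. For 10 of 15 libraries, the mean correlation with libraries of other groups was highest at their own number, where 1 in 3 would be by chance. Some spread may thus be shared by number, which the main fit leaves out. With counts divided by their common divisor, 17 genes were called, 14 of them among the 15. Leaving out 1 library gave 5 to 16 calls for the mean contrast (4 to 15 lower, 5 to 16 with the same sign), 26 to 175 among constructs and 88 to 340 between forms. Singly against EV, the same fits gave 6 to 38 in FL, 1 to 28 in FL-mut, 0 to 4 in SF-Nte and 1 to 6 in SF-mut. With all libraries, 489 of 6767 genes had an unadjusted p under 0.05 in SF-Nte.

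With SF-Nte and SF-mut alone, the direction turned for S100A4 (0.0020), IFITM2 (0.37), SPANXC (-0.21), SPANXB1 (-0.34), HMGN3 (0.12), ZMYM3 (0.17) and HDAC2 (-0.084). ZMYM3 also turned without FL-mut (0.068), and FADS2 (0.057, lowest -1.88 without FL-mut replicate 3) and IFITM2 (0.50, lowest -1.88 without EV replicate 1) without EV replicate 3. Of these 8 genes, S100A4 alone was called with all libraries. Over all named genes and settings, 2294 values kept direction and side of the threshold, 134 lost the call, 50 gained it and 10 turned. The cause was not tested.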
